A study of Danio rerio with 33 samples.

Results

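The 33 genes described here make cholesterol, sense it, and move or store it in the cell: 10 enzymes of the mevalonate route, 12 enzymes of the later sterol steps, 5 regulators, and 6 genes for sterol uptake, transport and storage. They were chosen by name from a table of 25432 zebrafish protein-coding genes, all 33 were found, and all 33 were among the 22124 genes that passed the filter on low counts. Expression was measured by RNA sequencing in whole wild-type zebrafish embryos (Danio rerio) kept from 96 to 120 hours after fertilisation, for 24 h, in organic extracts of filters that had collected airborne particles. Each of the 33 libraries is 1 pool of 10 embryos. Controls were vehicle (6 libraries, no filter extract) and mock filter extract (3 libraries). Harbour filters 32, 36 and 38 (1, 4 and 4 libraries), traffic road filters 26, 28 and 30 (4, 4 and 1 libraries) and airport filters 44 and 48 (1 library each) are from Barcelona in the cold season. Airport filter 54 (1 library) is from Barcelona in the warm season, and subway filter 80 (3 libraries) is from Valencia. Pools labelled with 1 filter do not resample the air. Their titles carry a further number that the labels do not explain, and whether the dose or the extract preparation differed with it is unknown. No label says that they came from separate spawnings, so the p-values measure the spread between these pools, which may be technical. An equal dose in all pools is an assumption, because the labels give none.

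Cholesterol synthesis starts from acetyl-CoA, which acat2 and hmgcs1 join into HMG-CoA. HMG-CoA reductase, encoded by hmgcra and hmgcrb in zebrafish, makes mevalonate and is the main point of control. Mevalonate is turned into farnesyl diphosphate, from which fdft1 makes squalene, and a chain of enzymes from sqlea to dhcr7 closes the rings and trims the sterol. In mammals the transcription factor SREBP-2 (the product of SREBF2) is held in the endoplasmic reticulum by SCAP and the INSIG proteins while cholesterol is plentiful, and switches on synthesis and LDL receptor genes when it runs low. Cholesterol taken up by the LDL receptor leaves the lysosome through NPC1, is carried in the cytosol by proteins such as STARD4, and is esterified for storage by the SOAT enzymes.

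Libraries were assigned to a first round (15 libraries, names of series 35) and a second round (18 libraries, series 37 and 38). The rounds were set from these names. Totals were 18448718 to 51854033 counts. All airport and mock filter libraries, vehicle 1 to 3, replicate 1 of filters 26, 28, 36 and 38, and filters 30 and 32 were in the first round. Vehicle 4 to 6, replicates 2 to 4 of those filters and the subway libraries were in the second. Within the second round, the 3 subway libraries and harbour filter 36 replicate 4 carry library names of series 38, and the other 14 libraries, vehicle 4 to 6 among them, of series 37. In the site fit, the round itself was associated with 4 of the 33 genes (fdft1, srebf1, srebf2 and SCAP, each higher in the second round), beside 25.1% of all genes tested. Vehicle 3, mock filter 2 and mock filter 3 stood apart in interferon-induced genes, with summed levels of 116, 93.2 and 108 CPM (counts scaled to the library size), against 5.55 to 9.49 CPM in the other vehicle libraries. Sums of liver, intestine, brain and skin markers were above 2827 CPM in each library, and the labelled tissue is the whole embryo.

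The airport extracts gave the most calls among these genes, and those for uptake, transport and storage made up 4 of the 6 higher calls. At an adjusted p under 0.05 (edgeR quasi-likelihood test with Benjamini-Hochberg adjustment over all genes), 9 of the 33 genes changed against vehicle, 6 higher and 3 lower, which is 27.3% of them. Of all genes tested, 33.5% were called in this comparison (16.9% higher, 16.6% lower), so the share among the sterol genes was no larger than the background. The median log2 fold change was 0.12 over the 33 genes and -0.03 over all genes. Within the first round, which holds all airport libraries, 9 genes passed, 7 higher and 2 lower, beside 33.7% of all genes. In whole embryos, fewer cells of a type and less RNA per cell cannot be told apart.

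Within the uptake, transport and storage group 4 of 6 genes rose in airport embryos. npc1, the lysosomal cholesterol exporter, was at 109, 99.8 and 101 CPM under airport filters 44, 48 and 54. Vehicle 1 to 6 gave 71.4, 74.9, 73.3, 67.4, 72.2 and 73.9 CPM for npc1. Every airport library was above every vehicle library, and the fitted log2 fold change was 0.53 ± 0.13 (SE, 3 against 6 libraries, edgeR adjusted p = 0.00214).

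stard4, a cytosolic sterol carrier, was at 7.56, 9.35 and 5.78 CPM in the airport libraries and at 3.83, 4.65, 3.78, 4.1, 4.52 and 3.86 CPM in vehicle. The ranges of stard4 did not overlap, and its log2 fold change was 0.97 ± 0.23 (SE, edgeR adjusted p = 0.00213) or 1.96-fold. soat2, which esterifies cholesterol, was at 8.84, 11.7 and 10.4 CPM against 6.81, 5.4, 4.94, 4.39, 3.92 and 5.73 CPM in vehicle, again with no overlap. Its log2 fold change was 1.03 ± 0.35 (SE, edgeR adjusted p = 0.0246). The soat2 call was lost without airport filter 48 or 54, where the largest adjusted p was 0.0802 in edgeR.

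ldlra, an LDL receptor gene, was at 102, 90.9 and 98.9 CPM in airport embryos. In vehicle ldlra was at 101, 69.2, 60.2, 65.5, 65.6 and 62 CPM, so vehicle 1 lay among the airport libraries and the other 5 lay below them. The log2 fold change of ldlra was 0.44 ± 0.11 (SE, edgeR adjusted p = 0.00408). It stayed between 0.40 and 0.63 when each library was left out in turn.

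The other storage and uptake genes did not pass. soat1 was at 5.41, 3.53 and 3.74 CPM under filters 44, 48 and 54 and at 2.17 to 3.95 CPM in vehicle, and it passed for filter 44 alone (log2 fold change 0.77 ± 0.27, SE, edgeR adjusted p = 0.0395). NPC1L1, named for the mammalian protein that takes up cholesterol in the gut, was at 18.6, 18.4 and 32.3 CPM against 24.3 to 50.6 CPM in vehicle. Its log2 fold change was -0.62 ± 0.25 (SE, edgeR adjusted p = 0.0568), the only one of the 6 with a negative sign.

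Of the 5 regulators, srebf2 rose in airport embryos. srebf2 was at 72.5, 68.5 and 95.1 CPM under filters 44, 48 and 54. First-round vehicle libraries held 69.7, 57.1 and 54.2 CPM of srebf2 and second-round ones 76.4, 78.3 and 69.7, so the airport values overlapped vehicle and filter 54 stood highest. The log2 fold change was 0.42 ± 0.10 (SE, edgeR adjusted p = 0.00224) with the round in the fit. Without the round it was 0.22 and was not called, while against the first-round vehicle libraries, in a fit with 1 coefficient per filter and round, it was 0.37 ± 0.10 (SE, edgeR adjusted p = 0.00575). Its paralogue srebf1 was at 10.7 to 12.8 CPM in airport and 11.1 to 16.7 CPM in vehicle. insig1, which encodes a protein that holds the SREBP complex in place, was at 61, 72.3 and 56.3 CPM in airport against 61.7 to 89.9 CPM in vehicle, with a log2 fold change of -0.32 ± 0.14 (SE, edgeR adjusted p = 0.0855). insig2 was at 1.55 to 2.73 CPM in airport and 1.49 to 3.07 CPM in vehicle.

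Among the 22 synthesis enzymes 1 rose and 3 fell in airport embryos, and their median log2 fold change was -0.03, equal to that of all genes at this rounding. hmgcrb, one of the HMG-CoA reductase genes, was at 37.8 and 36.9 CPM under filters 44 and 48 but at 25.6 CPM under filter 54, against 24.8 to 30 CPM in vehicle. Filters 44 and 48 lay above vehicle and filter 54 within it. Its log2 fold change was 0.31 ± 0.12 (SE, edgeR adjusted p = 0.0455). That call was lost when vehicle 1, 4 or 5 or airport filter 44 or 48 was left out. Over all libraries left out in turn, values lay between 0.21 and 0.51. The hmgcrb call was also lost without the 3 interferon-high libraries, against mock filter, and with pools of 1 filter as a block (limma voom). Its paralogue hmgcra was at 16.6, 12.8 and 26.5 CPM in airport and at 16.6 to 56 CPM in vehicle, with a log2 fold change of -0.44 ± 0.51 (SE, edgeR adjusted p = 0.54).

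lbr encodes a sterol reductase that is also the lamin B receptor of the inner nuclear membrane. It was at 32.9, 32 and 28.1 CPM in airport embryos and at 44.2, 49.3, 47.5, 53.8, 56.2 and 52.1 CPM in vehicle, with no overlap. The log2 fold change of lbr was -0.76 ± 0.22 (SE, edgeR adjusted p = 0.00925). Its paralogue in function, tm7sf2, was at 8.2 to 9.4 CPM in airport and 8.24 to 13.1 CPM in vehicle and did not pass.

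dhcr7, the last reductase of the route, was at 28.7, 33.8 and 40 CPM in airport embryos and at 41.8 to 53.7 CPM in vehicle, without overlap. dhcr7 fell by 0.45 ± 0.13 on the log2 scale (SE, edgeR adjusted p = 0.00885). That call was lost without airport filter 44 (edgeR adjusted p = 0.084). acat2, the thiolase at the start of the route, was at 12.4, 10.1 and 8.89 CPM against 11.9 to 18.8 CPM in vehicle, where the highest airport value overlapped the lowest vehicle ones. acat2 fell by 0.54 ± 0.18 (SE, edgeR adjusted p = 0.0229), and the call was lost without vehicle 2 or airport filter 48 or 54, with values of -0.68 to -0.40 over all libraries left out. The acat2 call was also lost within the first round, without the round in the fit, and against mock filter. The other 18 enzymes did not pass.

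**Figure D1:**
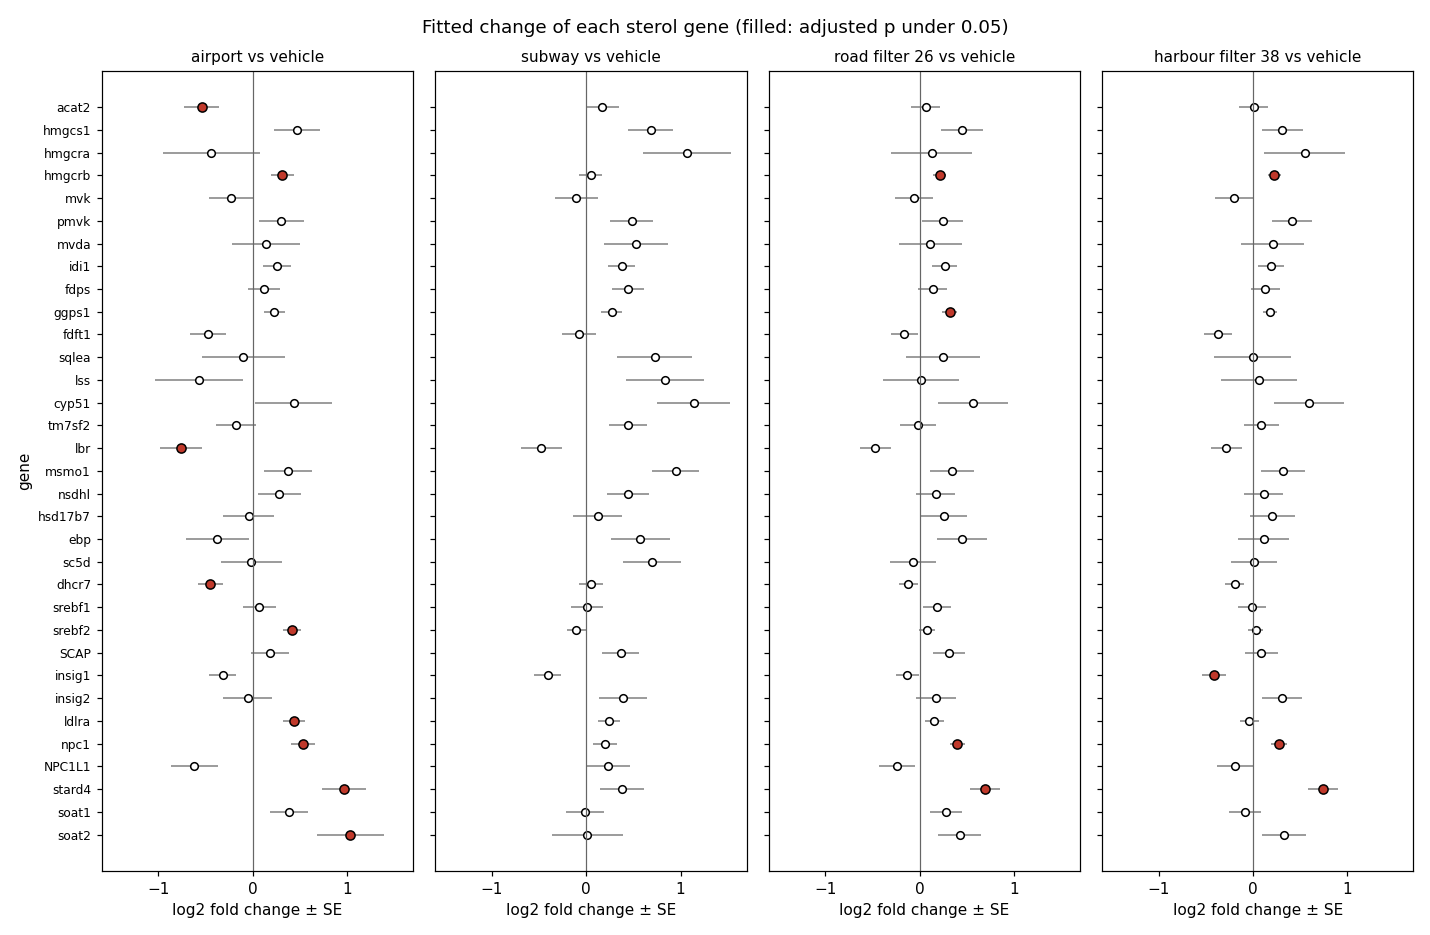
Log2 fold change against vehicle (x axis, with SE) of each of the 33 sterol genes (y axis, ordered by role) under airport extracts, subway filter 80, road filter 26 and harbour filter 38, with filled points for an adjusted p under 0.05. In the airport panel 9 points are filled, 4 of them among the 6 uptake, transport and storage genes at the bottom, and no point is filled in the subway panel.

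Skin and brain markers also changed in the airport libraries. The marker counts below stand beside 33.5% of all genes called (16.9% higher, 16.6% lower). All 9 skin markers were called, 6 lower and 3 higher, and their summed level was 6742 to 7518 CPM in airport and 14055 to 18478 CPM in vehicle. Of 13 brain markers 8 fell and none rose (61.5%), with sums of 3115 to 3353 CPM against 3426 to 3991 CPM. Of 15 liver markers 5 rose and 5 fell (66.7%), with sums of 4967 to 5325 CPM inside the vehicle range of 4353 to 5651 CPM. Of 10 intestine markers 1 rose and 3 fell (40%), with sums of 8824 to 11458 CPM against 6536 to 7375 CPM. The mean log2 level of these markers, minus the vehicle mean, was -0.352 to 0.0738 in airport and -0.228 to 0.191 in vehicle. Only the sums lay above vehicle. Of 9 interferon-induced genes 3 rose (33.3%, beside 33.5% of all genes), with sums of 36.9 to 57.9 CPM. The vehicle sums ran from 5.55 to 116 CPM, where the highest is the interferon-high vehicle 3. Every other vehicle library lay below all airport libraries. The part of these tissue markers and interferon-induced genes in the sterol gene results was not tested.

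Airport embryos also differed from the 18 harbour and road libraries in 5 of the 33 genes (edgeR, adjusted p under 0.05), beside 21.6% of all genes (10.5% higher, 11.1% lower). srebf2 (log2 difference 0.38 ± 0.09, SE), ldlra (0.39 ± 0.11) and soat2 (1.00 ± 0.33) were higher, and acat2 (-0.58 ± 0.17) and dhcr7 (-0.37 ± 0.12) were lower. npc1 (0.31 ± 0.12, edgeR adjusted p = 0.0558) and lbr (-0.54 ± 0.20, edgeR adjusted p = 0.0555) missed the threshold. The count was 3 without harbour filter 38 replicate 1, 8 without its replicate 2, and 2 without airport filter 44 or without 48. The srebf2 call was lost without airport filter 54 and the ldlra call without filter 44. The acat2 call was lost without filter 48 or 54, and the soat2 call without harbour filter 38 replicate 1 or any 1 of the airport libraries. The dhcr7 call was lost without airport filter 44 or 48 or replicate 1 of filter 28, 36 or 38. Within the first round it was 11, with 6 higher and 5 lower, beside 35% of all genes. Against the 3 mock filter libraries, 4 genes were higher in airport embryos and none was lower, beside 17.6% of all genes (9.89% higher, 7.68% lower): srebf2 at 0.48 ± 0.11, ldlra at 0.55 ± 0.13, npc1 at 0.41 ± 0.14 and stard4 at 0.83 ± 0.26 (log2 difference ± SE).

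**Figure D2:**
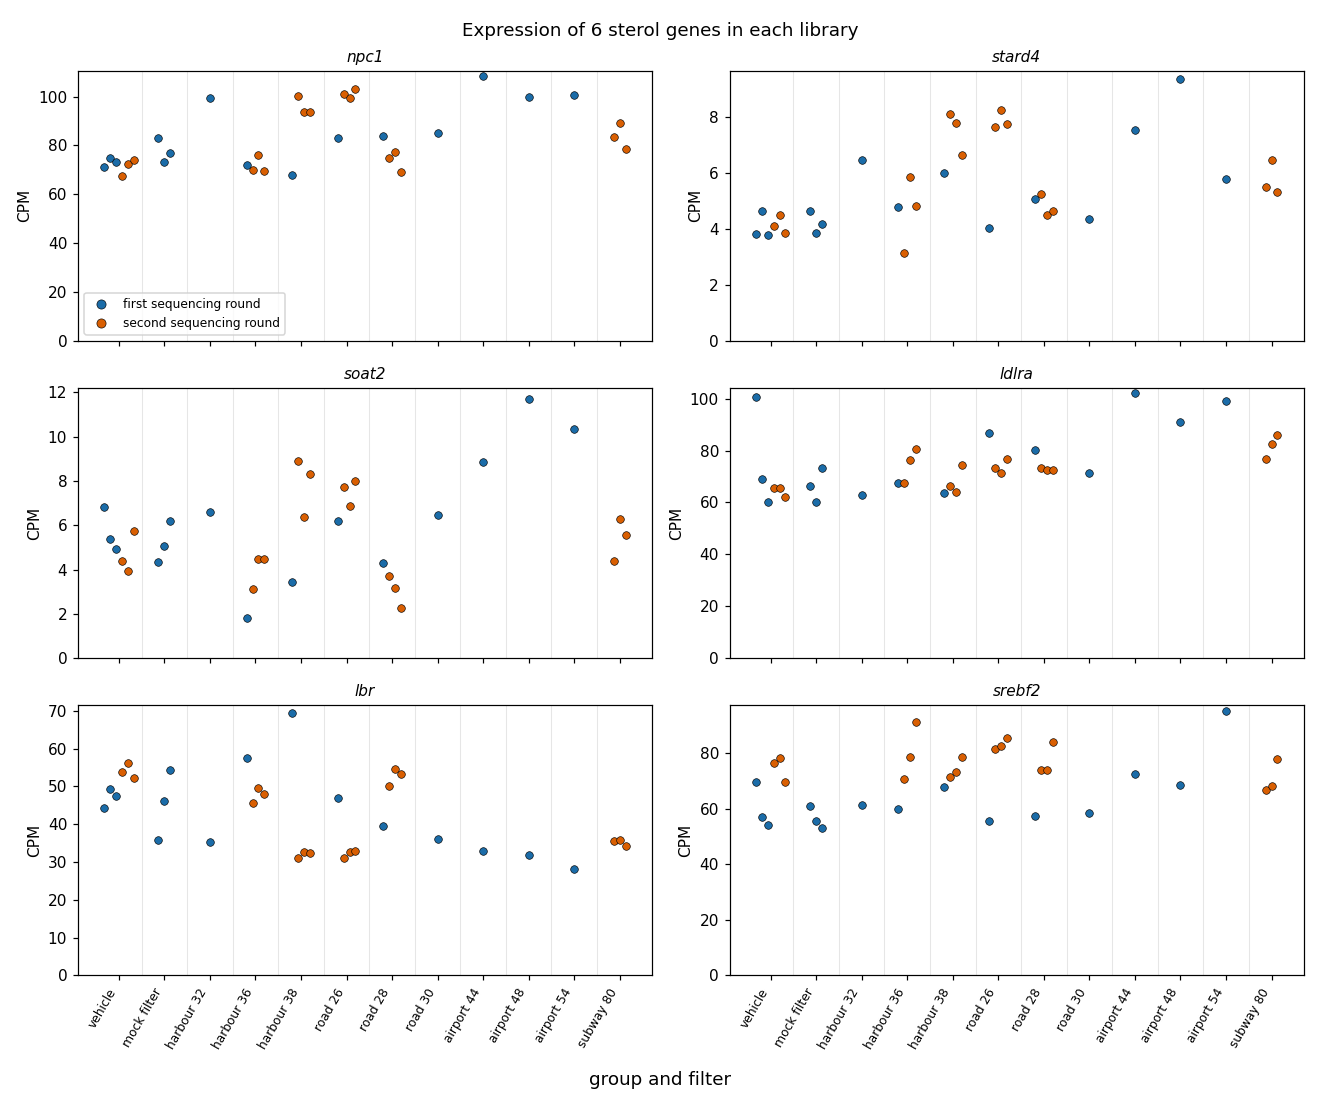
Expression of npc1, stard4, soat2, ldlra, lbr and srebf2 in CPM (y axis, from 0) in each of the 33 libraries, by group and filter (x axis). Colour gives the round as set from the library names, which the legend calls sequencing round. Airport libraries lie above all vehicle libraries for npc1, stard4 and soat2 and below them for lbr, and the blue first-round points of road 26 and harbour 38 lie apart from the orange second-round points for lbr.

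Single road and harbour filters were also compared with vehicle. Road filter 26 raised 4 of the 33 genes against vehicle and lowered none (12.1%), beside 16.8% of all genes called (9.45% higher, 7.33% lower). npc1 was at 83.2, 101, 99.3 and 103 CPM in its 4 pools, each above the vehicle range that ended at 74.9 CPM, and its log2 fold change was 0.40 ± 0.08 (SE, edgeR adjusted p = 0.00212). stard4 was at 4.05 CPM in replicate 1, inside the vehicle range, and at 7.65, 8.27 and 7.74 CPM in replicates 2 to 4, above it. The log2 fold change of stard4 was 0.70 ± 0.16 (SE, edgeR adjusted p = 0.0046). ggps1, which makes the geranylgeranyl chain on a side branch, was at 29.7, 34.5, 35.9 and 39.8 CPM under filter 26 against 23.7 to 31.3 CPM in vehicle (log2 fold change 0.32 ± 0.07, SE, edgeR adjusted p = 0.00565). hmgcrb was at 27.5, 31.4, 32.4 and 34.8 CPM (0.21 ± 0.07, SE, edgeR adjusted p = 0.0443). That call was lost without any 1 of vehicle 4 to 6 or filter 26 replicates 2 to 4, with values of 0.17 to 0.31 over all libraries left out.

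Harbour filter 38 gave 4 calls of 33 (12.1%), 3 higher and 1 lower, beside 10.1% of all genes (6.74% higher, 3.34% lower). stard4 was at 6, 8.12, 7.79 and 6.66 CPM, all above vehicle, with a log2 fold change of 0.74 ± 0.16 (SE, edgeR adjusted p = 0.00524). hmgcrb was at 30.6, 32.2, 33 and 31.6 CPM, also above every vehicle library (0.23 ± 0.07, SE, edgeR adjusted p = 0.0451). npc1 was at 68 CPM in replicate 1 and at 100, 93.5 and 93.5 CPM in replicates 2 to 4 (0.28 ± 0.08, SE, edgeR adjusted p = 0.0334). insig1 fell, at 62.8, 55.5, 56.5 and 47.4 CPM against 61.7 to 89.9 CPM in vehicle (-0.41 ± 0.13, SE, edgeR adjusted p = 0.0387). Only the stard4 call held with each of the 10 libraries left out. npc1 was lost without any 1 of vehicle 4 to 6 or replicates 2 to 4 (0.22 to 0.41), insig1 without vehicle 1, 5 or 6 or replicates 2 to 4 (-0.47 to -0.34), and hmgcrb without vehicle 1, 4, 5 or 6 or replicates 2 to 4 (0.19 to 0.25). The ranges in brackets are over all 10 libraries left out in turn. The count for filter 38 was 7 without replicate 1, and 1 or 2 without vehicle 1, 4, 5 or 6 or replicates 2 to 4. Of 9 skin markers, 5 fell and 3 rose under filter 26, and 5 fell and 1 rose under filter 38. Of 13 brain markers 4 fell under filter 26 and none passed under filter 38. Of 15 liver markers 3 rose and 4 fell under filter 26, and 3 rose and 1 fell under filter 38. Of 10 intestine markers 1 rose and 2 fell under each filter. These marker counts stand beside 16.8% of all genes called under filter 26 and 10.1% under filter 38. The part of the markers in the sterol gene results was not tested.

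Road filter 28 and harbour filter 36 gave no call among the 33 genes in edgeR, beside 0.0904% (0.0768% higher, 0.0136% lower) and 0.0588% (0.0497% higher, 0.00904% lower) of all genes called. At an unadjusted p under 0.05 there were 6 for filter 28 (5 higher, 1 lower) and 4 for filter 36 (2 higher, 2 lower), and DESeq2 also gave 0 for both. npc1 was at 84.1, 74.8, 77.5 and 69.3 CPM under filter 28 and at 71.9, 70.2, 75.9 and 69.5 CPM under filter 36. soat2 was at 4.28, 3.73, 3.17 and 2.28 CPM under filter 28 and at 1.8, 3.13, 4.49 and 4.49 CPM under filter 36, values within or below the vehicle range of 3.92 to 6.81 CPM. 

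Each airport filter has 1 pool, which takes its spread from the other groups, so the calls below compare single pools with vehicle. Filter 44 gave 7 calls (6 higher, 1 lower), beside 23.9% of all genes (12.8% higher, 11.1% lower). They were hmgcrb (0.51 ± 0.12), ggps1 (0.58 ± 0.12), ldlra (0.48 ± 0.17), npc1 (0.63 ± 0.13), stard4 (0.97 ± 0.26) and soat1 (0.77 ± 0.27) higher, and dhcr7 (-0.72 ± 0.18; log2 fold change ± SE) lower. Filter 48 gave 4 calls, all higher, beside 18.3% of all genes (10.3% higher, 8.04% lower): hmgcrb (0.47 ± 0.12), npc1 (0.51 ± 0.13), stard4 (1.27 ± 0.25) and soat2 (1.26 ± 0.35). Filter 54, the warm-season one, gave 3 higher and 3 lower, beside 22.8% of all genes (11.7% higher, 11.1% lower). srebf2 (0.68 ± 0.13), npc1 (0.52 ± 0.13) and soat2 (1.08 ± 0.34) were higher, and acat2 (-0.80 ± 0.28), lbr (-0.97 ± 0.30) and the squalene synthase gene fdft1 (-0.95 ± 0.26) were lower. npc1 passed in each of the 3, and a difference between the airport filters was not tested. Of the other filters with 1 pool, harbour filter 32 gave 1 call, npc1 at 99.5 CPM (0.50 ± 0.13, SE, edgeR adjusted p = 0.0342), beside 4.05% of all genes (2.91% higher, 1.14% lower). Road filter 30 had log2 fold changes from -0.84 to 0.76 over the 33 genes in edgeR.

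Filters of 1 site were also compared directly. Road filter 26 was higher than road filter 28 in npc1 (log2 difference 0.34 ± 0.09, SE, edgeR adjusted p = 0.0218) and in soat2 (1.08 ± 0.25, SE, edgeR adjusted p = 0.0106), 2 of 33 genes beside 7.53% of all genes (4.8% higher, 2.73% lower). For soat2 the pools of filter 26 held 6.2, 7.74, 6.87 and 8.01 CPM, all above those of filter 28. That call was lost without filter 28 replicate 4, and the npc1 call without replicate 2, 3 or 4 of either filter. The count was 6 without replicate 1 of either filter, 0 without filter 28 replicate 4, and 1 without any other of the 8 libraries. Within the second round it was 6, beside 20.9% of all genes, with npc1 (0.45 ± 0.07), stard4 (0.72 ± 0.16), soat2 (1.29 ± 0.20), hmgcrb (0.28 ± 0.08) and ggps1 (0.31 ± 0.08) higher under filter 26 and lbr (-0.71 ± 0.09; log2 difference ± SE) lower.

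Harbour filter 36 was lower than harbour filter 38 in 4 genes, beside 7.13% of all genes (2.29% higher, 4.84% lower): hmgcrb (-0.32 ± 0.08), npc1 (-0.30 ± 0.09), stard4 (-0.62 ± 0.17) and soat2 (-0.96 ± 0.25; log2 difference ± SE, edgeR adjusted p = 0.0159, 0.0383, 0.0306 and 0.0249). soat2 was at 3.45, 8.92, 6.4 and 8.31 CPM under filter 38, where replicate 1 lay within the filter 36 values. With the replicate number as a block, in the 16 harbour and road libraries of the 4 repeated filters, none of the 33 genes was called in edgeR and the same 16 libraries without the block gave 1. The 4 values under the block were -0.31 for hmgcrb, -0.28 for npc1, -0.61 for stard4 and -0.94 for soat2. The count was 2 without filter 36 replicate 1 or 4 or filter 38 replicate 4, 1 without replicate 2 of either filter, and 0 without filter 38 replicate 3. The npc1 call was lost without any of the 8 but filter 38 replicate 1, and the hmgcrb call without filter 38 replicate 3. The stard4 call was lost without replicate 2 of either filter, filter 36 replicate 4 or filter 38 replicate 3, and the soat2 call without filter 36 replicate 1 or 2 or filter 38 replicates 2 to 4. Within the second round 5 genes were called, beside 18.2% of all genes, with lbr (0.58 ± 0.10, SE) higher under filter 36 and the same 4 genes lower.

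The first-round pool of filters 26 and 38 differed from the 3 second-round pools in several of these genes. lbr was at 46.8 CPM in filter 26 replicate 1 and at 31, 32.6 and 33 CPM in replicates 2 to 4. Under filter 38 lbr was at 69.4 CPM in replicate 1 and at 31.1, 32.5 and 32.3 CPM in the others. The 2 first-round values lay within or above the vehicle range and the 6 second-round values below it. Skin marker sums were also higher in the first-round pools. They were 15643 CPM in filter 26 replicate 1 against 8600 to 9569 CPM in its second-round pools, and 12928 CPM in filter 38 replicate 1 against 8134 to 10778 CPM. The vehicle sums ran from 14055 to 18478 CPM, so filter 38 replicate 1 lay below vehicle here, unlike for lbr. Targets of the aryl hydrocarbon receptor, which binds many combustion products, summed to 888 CPM in filter 26 replicate 1 and to 532 to 549 CPM in replicates 2 to 4, against 357 to 417 CPM in vehicle, so the first-round pool held the highest sum. Under filter 38 the same targets summed to 581 CPM in replicate 1 and to 560 to 590 CPM in the others. The part of the round and of dose in these differences was not tested, and each first-round value of a filter rests on 1 pool.

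Within the second round alone (a fit with 1 coefficient per filter and round), lbr fell under filter 26 (-0.75 ± 0.10, SE, edgeR adjusted p = 4.06e-06), under filter 38 (-0.76 ± 0.10, SE, edgeR adjusted p = 5.06e-06) and under subway filter 80 (-0.61 ± 0.10, SE, edgeR adjusted p = 0.00032). In the first round it fell in airport embryos (-0.61 ± 0.10, SE, edgeR adjusted p = 4.44e-05). The only first-round pool of filter 38, at 69.4 CPM, was above the first-round vehicle libraries by 0.56 on the log2 scale, a value that rests on that 1 pool with its spread taken from the other groups. The second-round comparison called 6 genes for filter 26 (hmgcrb, ggps1, npc1, stard4 and soat2 higher, lbr lower; 26.8% of all genes) and 9 for filter 38 (hmgcrb, npc1, stard4 and soat2 higher, fdft1, lbr, dhcr7, insig1 and NPC1L1 lower; 23.4% of all genes). In the first round, filter 26 gave none in edgeR (0.14% of all genes) and filter 38 gave pmvk and lbr, both higher (2.41% of all genes), each from 1 pool. These comparisons share the vehicle libraries of their round.

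Levels of the synthesis enzymes differed widely between pools of 1 filter. Relative to the vehicle libraries of the same round, the mean log2 level of the 22 enzymes was highest in mock filter 1, at 0.92 with 20 of 22 genes above vehicle, while mock filters 2 and 3 both lay at -0.08. Harbour 38 replicate 1 lay at 0.67 with 22 of 22 above, harbour 36 replicate 1 at 0.61, harbour 32 at 0.47, subway 2 at 0.48, subway 3 at 0.44 and subway 1 at -0.06. The lowest were harbour 38 replicate 2 at -0.42 and harbour 36 replicate 4 at -0.33. Airport libraries lay at 0.10, 0.09 and 0.09, inside the vehicle spread of -0.12 to 0.16. Filter 38 thus held both a high pool, from the first round, and a low pool, from the second. Against the mean of all vehicle libraries these pools lay at 0.47 and -0.22. On that baseline mock filter 1 lay at 0.72, and subway 2 and 3, at 0.69 and 0.64, ranked above the high pool of filter 38. The order thus depends on the vehicle baseline. Uptake, transport and storage genes had another order: against same-round vehicle their mean was 0.40 to 0.44 in airport libraries, above the vehicle range of -0.19 to 0.10. Lying above that range was not particular to airport. Subway pools did so too, at 0.11 to 0.31. Harbour libraries ran from -0.20 to 0.31, road libraries from -0.22 to 0.38 and mock filter libraries from -0.15 to 0.11.

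**Figure D3:**
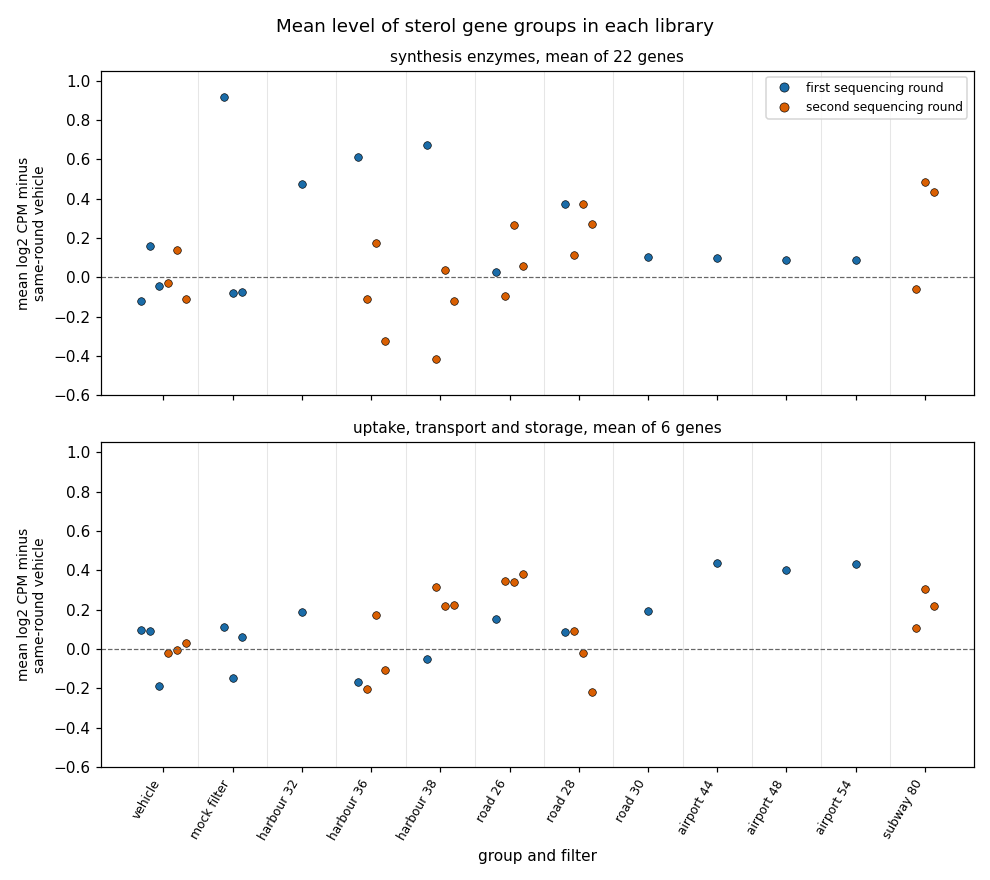
Mean log2 CPM of the 22 synthesis enzymes (top) and of the 6 uptake, transport and storage genes (bottom), in each library by group and filter (x axis). Each is minus the vehicle mean of the same round, as set from the library names (y axis). Mock filter 1 at 0.92 is the highest point of the top panel, and the 3 airport libraries at 0.40 to 0.44 are the highest of the bottom panel.

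Among the synthesis enzymes the widest ranges of log2 CPM over the 33 libraries belonged to cyp51, hmgcra and sqlea, which were picked out after their values were seen. hmgcra was at 85.2, 18.4 and 13.9 CPM in mock filter 1, 2 and 3, at 45.7, 79.2 and 91 CPM in the subway pools and at 29, 62.6, 91.1 and 74.2 CPM in road filter 28. cyp51, the lanosterol demethylase, was at 72.8, 13.3 and 13.6 CPM in the mock filter libraries and at 9.67 to 35.9 CPM in vehicle. sqlea, the squalene epoxidase, was at 9.22, 1.55 and 1.9 CPM in the mock filter libraries and at 1.71 to 4.79 CPM in vehicle. All 3 genes were high in mock filter 1. First-round vehicle libraries held 9.67 to 21.4 CPM of cyp51, 16.6 to 23.2 of hmgcra and 1.71 to 2.14 of sqlea. Mock filters 2 and 3 lay within these ranges, except hmgcra in mock filter 3 and sqlea in mock filter 2, which lay below. Vehicle libraries themselves differed by round: second-round means were higher than first-round means for 19 of the 22 enzymes, by a median of 0.27 on the log2 scale, against 11233 of 22124 genes and a median of 0.01 over all genes. For cyp51 the vehicle values were 11, 21.4 and 9.67 CPM in the first round and 33.1, 35.9 and 25.8 CPM in the second. Over all 33 libraries the median SD of log2 CPM was 0.35 for the enzymes, 0.33 for the other 11 sterol genes and 0.28 for all genes.

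**Figure D4:**
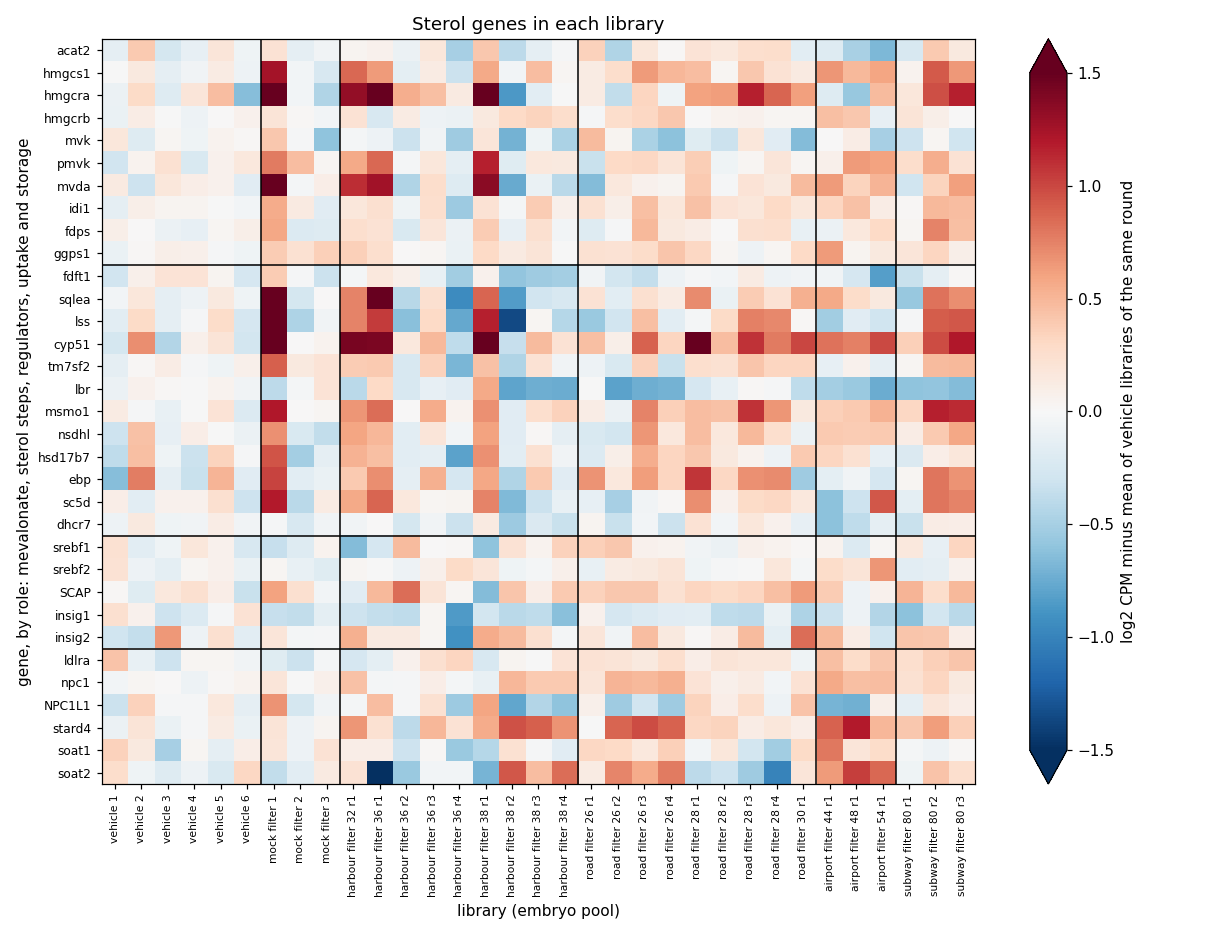
Log2 CPM minus the vehicle mean of the same round (colour) for each of the 33 sterol genes (rows, by role) in each of the 33 libraries (columns, by site). Most synthesis enzyme rows are red together in mock filter 1, harbour 36 replicate 1, harbour 38 replicate 1 and subway pools 2 and 3, while the rows of npc1, stard4 and soat2 are red in the airport columns.

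Of the 3 pools of subway filter 80, replicates 2 and 3 had high synthesis enzyme levels and replicate 1 did not, and no gene was called. The mean log2 level of the 22 enzymes against second-round vehicle was -0.06 in replicate 1, with 12 of 22 above, and 0.48 and 0.44 in replicates 2 and 3, each with 20 of 22 above. None of the 33 genes passed in edgeR, beside 0.145% of all genes (0.108% higher, 0.0362% lower). DESeq2 called 1, edgeR with 3 levels of library series called 1, and 13 had an unadjusted p under 0.05 (11 higher, 2 lower). The median log2 fold change of the 22 enzymes was 0.44, against -0.01 over all genes, and 19 of 22 were positive. Mock filter, against the same vehicle libraries, had a median of 0.20 with 17 of 22 positive. Its pools differed, with 20, 7 and 9 of 22 above same-round vehicle in mock filters 1 to 3. msmo1, a sterol methyl oxidase, was at 34, 61.4 and 59.4 CPM in the subway pools and at 22.9 to 31.5 CPM in vehicle, without overlap, with a log2 fold change of 0.95 ± 0.25 (SE, edgeR adjusted p = 0.121). cyp51 was at 40.2, 62 and 72.1 CPM, also above vehicle, with 1.14 ± 0.38 (SE, edgeR adjusted p = 0.253), and hmgcra gave 1.06 ± 0.47 (SE, edgeR adjusted p = 0.418). In 9 of 33 genes the subway and vehicle ranges did not overlap (pmvk, ggps1, cyp51, msmo1, SCAP, npc1 and stard4 above, lbr and insig1 below), against 13.1% of all genes. Within the second round 3 genes passed, beside 7.92% of all genes: msmo1 (0.90 ± 0.28, SE, edgeR adjusted p = 0.0472) and npc1 (0.23 ± 0.07, SE, edgeR adjusted p = 0.0314) were higher, and lbr was lower. Subway skin markers summed to 10143 to 10620 CPM and brain markers to 3099 to 3212 CPM, both below the vehicle ranges, and intestine markers to 8741 to 9457 CPM, above it. Liver markers, at 4900 to 5219 CPM, lay within it. The mean log2 level of the 10 intestine markers, minus the vehicle mean, was -0.145 to -0.0507 in the subway pools. That lay within the vehicle range of -0.228 to 0.191, unlike the sum, and 1 of the 10 was called, higher. The part of these markers was not tested, and series 38 holds no vehicle library.

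Road filter 28 also had positive values for most enzymes without a call. In edgeR 21 of the 22 enzymes had a positive log2 fold change against vehicle, including all 12 of the later sterol steps, with a median of 0.29 over the 22. Most were also positive for mock filter (17 of 22), harbour (17), road (18) and filters 26, 36 and 38 (16, 16 and 17). Airport gave 10 of 22, and all these comparisons share the vehicle libraries. Single pools differed widely. Above same-round vehicle were 20, 7 and 9 of the 22 enzymes in mock filters 1 to 3. In replicates 1 to 4, filter 38 had 22, 2, 13 and 6 above and filter 36 had 20, 7, 16 and 3. Filter 26 had 11, 10, 17 and 15, and filter 28 had 18, 15, 21 and 18. msmo1 was at 34.1, 37.2, 58 and 43.3 CPM under filter 28, each above the vehicle range that ended at 31.5 CPM, with a log2 fold change of 0.71 ± 0.23 (SE, edgeR adjusted p = 0.581). cyp51 was at 37.9, 43.1, 66.5 and 53.6 CPM, above vehicle as well, with a fitted ratio of 2.07 to vehicle (edgeR adjusted p = 0.699). Intestine markers of filter 28 summed to 8841, 7952, 8312 and 7573 CPM, all above the vehicle maximum of 7375 CPM, and 9 of 10 had positive values, none of them called. Sums above that maximum were not particular to filter 28. Intestine marker sums were 7485 to 8841 CPM over all 9 road libraries, each above that maximum. Over the 3 mock filter libraries they were 7005 to 9111 CPM, where the lowest lay below it. Liver, brain and skin markers gave no call under filter 28 either, and the part of these markers was not tested. In 3 of the 33 genes (idi1, cyp51 and msmo1) all 4 pools lay above all vehicle libraries, against 1.68% of all genes with ranges that did not overlap. Ranges of the same kind did not overlap for 8 genes in airport embryos (npc1, stard4, soat2, idi1 and msmo1 above, lss, lbr and dhcr7 below), against 24.5% of all genes.

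Taking all filters of a site together, harbour and road gave no call among the 33 genes in edgeR, beside 0.615% (0.434% higher, 0.181% lower) and 0.353% (0.258% higher, 0.0949% lower) of all genes. For harbour 6 genes had an unadjusted p under 0.05 (5 higher, 1 lower) and DESeq2 called 1. For road 8 did (7 higher, 1 lower) and DESeq2 called 0. Mock filter gave none either, beside 0.0136% of all genes, all of them higher, with 3 sterol genes at an unadjusted p under 0.05 and 0 in DESeq2. Against mock filter, harbour and road gave none in edgeR, beside 0.203% and 0.0542% of all genes, and none at an unadjusted p under 0.05. insig1 had a negative value in every site comparison with vehicle, at -0.33 for mock filter, -0.38 for harbour, -0.23 for road, -0.32 for airport and -0.41 for subway, and cyp51 a positive one, at 0.90, 0.63, 0.81, 0.43 and 1.14 in the same order. None of these passed, and all 5 comparisons share the same vehicle libraries. Mock filter, which carries no sampled air, had values of the same sign for both genes. For cyp51 its value rests largely on mock filter 1, at 72.8 CPM. The other mock filter libraries, at 13.3 and 13.6 CPM, lay within the first-round vehicle range of 9.67 to 21.4 CPM.

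Within rounds, the 3 first-round harbour pools had 5 calls, beside 7.19% of all genes. hmgcra was at 47.8, 74.5 and 78.6 CPM in harbour 32, 36 and 38 against 17.9, 23.2 and 16.6 CPM in first-round vehicle (1.76 ± 0.46, SE, edgeR adjusted p = 0.0234). pmvk (0.87 ± 0.21), mvda (1.26 ± 0.33) and ggps1 (0.30 ± 0.08) were higher as well and soat2 was lower (-0.73 ± 0.22; log2 fold change ± SE). mvda, the decarboxylase before the isoprene units, was at 5.47, 6.1 and 6.48 CPM against 2.75, 2 and 2.82 CPM, and at 7.6 CPM in mock filter 1 of the same round. In the second round harbour and road each gave 3 calls, npc1 and stard4 higher and lbr lower, beside 10.4% and 11% of all genes. Each averages its filters of that round. Taken singly there, filters 26 and 38 gave 6 and 9 calls (26.8% and 23.4% of all genes). Filters 28 and 36 gave 0 (0.0814% and 0.0949% of all genes).

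Other lipid genes changed in airport embryos too, and those named are among the 4 with the smallest p in their list. Of 30 further genes of the mevalonate branches, lipoprotein receptors and sterol handling, 10 rose and 5 fell, among them pdss1 (0.51 ± 0.10) and pdss2 (0.99 ± 0.21), which make the side chain of coenzyme Q, nus1 (0.49 ± 0.09) of dolichol synthesis, and the lipoprotein receptor vldlr (-0.41 ± 0.09; log2 fold change ± SE). Of 23 genes of sterol efflux, lipoproteins and bile acids, 8 rose and 3 fell. They include the lipoprotein genes apoeb (1.48 ± 0.29) and apoa1a (0.90 ± 0.20), the phospholipid transfer protein pltp (1.02 ± 0.15) and lcat (1.17 ± 0.20), which esterifies cholesterol in plasma. Of 18 genes of fatty acid and triglyceride synthesis, 5 rose and 1 fell, with dgat1b, a triglyceride synthesis gene, at 0.98 ± 0.22, the fatty acid elongase elovl5 at 0.77 ± 0.25 and the desaturase scdb at -0.26 ± 0.08. The shares of 50%, 47.8% and 33.3% stand beside the 33.5% of all genes. Under filter 26 the same lists held 8 of 30, 10 of 23 and 4 of 18 calls, beside 16.8% of all genes. Under filter 38 they held 6, 5 and 3, beside 10.1% of all genes.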

How the data were processed

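Per the labels' protocols, poly-A RNA of embryo pools was made into stranded libraries and sequenced as read pairs. The submitters' processing notes name CASAVA, BWA and the GRCz11 build. How reads were counted per gene, with which strand setting and annotation, is not given in the sources used here. Reads of paralogues or overlapping genes could therefore be shared. The authors' gene table holds counts that are not normalized. The deposited quality table gives the percent of uniquely mapped reads, 71.7 to 79.5 percent per library, and the number of read pairs, per the file headers. Its column headed Sequence holds the codes CAS3 and CAS4, which split the libraries as the rounds used here do. The rounds themselves were set from the library names.

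Counts were filtered (filterByExpr), scaled by TMM and fitted with edgeR 4.0.16 (quasi-likelihood) in R 4.3.3 over all 33 libraries, with 1 coefficient per site, or per filter, and the round as covariate. P-values were adjusted by Benjamini-Hochberg over 22124 genes, with a threshold of 0.05. For log2 CPM, 2 counts were added as a prior. The script was tested on simulated data. DESeq2 1.42.0, limma 3.58.1, other covariates, within-round contrasts, a replicate block and libraries left out were alternatives. Members and lists were chosen with earlier results of these data known. Named in full were members called against vehicle (11) and their 6 paralogues. Levels are not compared between genes, since no lengths were used. Among 45 pairs of same-group libraries, chi-square per degree of freedom was 4.67 to 90.8, so none was a copy.

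Harbour filters 36 and 38 share replicate numbers 1 to 4, and deviations of same-numbered libraries correlated at 0.387, 0.245, 0.133 and 0.157 across genes. They were taken as paired only in the alternative fit with the replicate number as a block. The main fit, which gave the calls for filter 36 against 38, held no such block. The pairing comes from this check, not from a batch named in the labels, and number 1 is the first-round pool of both. Promoter and protein sequences were not analysed here.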

Additional observations from a re-analysis of the deposited data

Results flagged for a closer look

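Among 126 checks of single genes and enzyme means within vehicle, harbour, road and the 4 repeated filters, 9 found a library far from the rest of its group. Chance gives about 1 in 20. ldlra was highest in vehicle 1, at 101 CPM with the next at 69.2. Under filter 26, replicate 1 was lowest for stard4 (4.05 CPM, next 7.65) and srebf2 (55.5 CPM, next 81.4) and highest for lbr (46.8 CPM, next 33). Under filter 38, replicate 1 was highest for lbr (69.4 CPM, next 32.5). These 2 libraries are the first-round pools of their filters. Also in filter 26, NPC1L1 was highest in replicate 3 (37.2 CPM) and srebf1 in replicate 2 (19.7 CPM), the latter also highest among all 9 road libraries at 19.7 CPM. Under filter 28, ldlra was highest in replicate 1 (80.1 CPM).

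Tested differences between exposures passed for 11 values (edgeR, log2 difference). Airport minus harbour and road gave -0.58 for acat2, -0.37 for dhcr7, 0.38 for srebf2, 0.39 for ldlra and 1.00 for soat2. Road filter 26 minus 28 gave 0.34 for npc1 and 1.08 for soat2. Harbour filter 36 minus 38 gave -0.32 for hmgcrb, -0.30 for npc1, -0.62 for stard4 and -0.96 for soat2. These values are from the main fit, without a replicate block. With the replicate number as a block, in the 16 libraries of the repeated filters, none of the harbour differences passed. In the same libraries without the block, only hmgcrb did.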

How the results depend on the processing

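Over 28 named calls, 559 values under alternatives gave 444 with the same direction and side of the threshold, 110 with the same direction but not past it, and 5 with the opposite sign. Those 5 are all within the first round, with 1 pool a filter: hmgcrb (-0.0159) and stard4 (-0.0165) for filter 26, npc1 for filter 38 (-0.11), npc1 for 26 against 28 (-0.0152) and npc1 for 36 against 38 (0.0809). The cause was not tested.

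Counts of called sterol genes moved as follows. Percentages in brackets are the shares of all genes called in the same fit. Harbour went from 0 to 5 in the first round (7.19%) and 3 in the second (10.4%). It gave 1 in DESeq2 or without the 3 interferon-high libraries. Road went from 0 to 3 in the second round (11%). Subway went from 0 to 3 in the second round (7.92%) and 1 in DESeq2 or with 3 library series. Airport went from 9 to 4 against mock filter (17.6%). Airport against harbour and road went from 5 to 8 without the round or in DESeq2 and 11 within the first round (35%). First-round counts of filters 26, 36 and 38 rest on 1 pool each and are left out here. Filter 38 gave 2 with no filter on low counts and 9 in the second round (23.4%). Filter 26 against 28 gave 4 in DESeq2 and 6 in the second round (20.9%). Filter 36 against 38 gave 2 with 3 library series. Counts from DESeq2, other covariates or filters, blocks and libraries left out are given throughout without the share of all genes. Those counts are thus not set against the background.

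With each library left out, counts ran from 7 to 10 for airport, 2 to 8 for airport against harbour and road, 3 to 6 for filter 26, 1 to 7 for filter 38, 0 to 6 for 26 against 28, 0 to 6 for 36 against 38, 0 to 1 for harbour, and stayed 0 for mock filter, road, subway and filters 28 and 36.

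With the replicate block in the 16 libraries, 26 against 28 gave 1 call and 36 against 38 gave 0, where the same 16 libraries without the block gave 1 and 1. For filters 26 and 28 the same-numbered correlations were 0.203, 0.029, 0.112 and 0.026, and 2 of 4 libraries correlated best with their own number. For vehicle and mock filter they were 0.222, -0.180 and 0.284, and the block gave 0 calls. Depth of at least 18448718 counts limits low genes such as insig2 most.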
